A study of Mus musculus with 6 samples.

Results

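The intercalated disc and gap junction genes are 10 mouse genes whose proteins couple muscle cells end to end: Gja1, Gja5, Gjc1, Dsp, Pkp2, Jup, Dsg2, Dsc2, Cdh2 and Ctnna3. The members are all non-control array probes annotated with a RefSeq transcript of one of these genes, which gave 14 probes for the 10 genes among 55681 non-control probes. After a filter on dim signals, 13 of the 14 probes and all 10 genes remained among the 20871 genes and unnamed transcripts tested. The probe left out was a second Gja5 probe, for transcript NM_001271628, which was well above background on none of the 6 arrays. Each of the 10 genes had a probe that was well above background on all 6 arrays, so none entered the test through 1 group alone.

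Total RNA of mouse muscle was hybridised to 6 Agilent arrays with the dye Cy3, in 3 groups of 2 arrays. MDX_JJ101 held MDX mice given JJ101, a bioceramic water, and MDX_tap held MDX mice given tap water. B10_tap held C57BL/10 mice, the wild-type strain, on tap water. MDX mice carry a mutation in Dmd, the gene of the cytoskeletal protein dystrophin. Each group was on its water for 10 months, and the labels number the replicates without saying that they came from separate mice. The p-values below therefore measure the spread between these arrays, which may be technical.

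In heart muscle the intercalated disc is the end-to-end contact between neighbouring cells. It holds adherens junctions, which tie N-cadherin through catenins to actin, desmosomes, which tie desmosomal cadherins through plakoglobin, plakophilin and desmoplakin to desmin filaments, and gap junctions, whose connexin channels pass ions and small molecules from cell to cell. Adult skeletal muscle fibres are not joined by such discs, and Gja1 and Gja5 are known in muscle tissue also from vessels. Loss of desmosomal proteins of the disc is a known cause of arrhythmogenic cardiomyopathy in humans.

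The promoters of the 3 members whose values are described most closely are shown first, as RefSeq windows of build GRCm38.p6 that run from 250 bases before the start of the gene to 50 bases after it. The table held windows for Gja1, Gja5, Dsp, Jup and Ctnna3, and Gjc1, Pkp2, Dsg2, Dsc2 and Cdh2 were not in it. The capitals mark matches, on either strand, to 5 motifs. The letters searched were TGAGTCA for AP-1 and GGTGTG for the T-box core. They were CATTCC for MCAT, GGGCGG for the GC box and TATAAA for the TATA box, and no match overlapped another in the windows shown. Dsp encodes desmoplakin, and its window lies on the plus strand at chr13:38151044-38151343.
Dsp: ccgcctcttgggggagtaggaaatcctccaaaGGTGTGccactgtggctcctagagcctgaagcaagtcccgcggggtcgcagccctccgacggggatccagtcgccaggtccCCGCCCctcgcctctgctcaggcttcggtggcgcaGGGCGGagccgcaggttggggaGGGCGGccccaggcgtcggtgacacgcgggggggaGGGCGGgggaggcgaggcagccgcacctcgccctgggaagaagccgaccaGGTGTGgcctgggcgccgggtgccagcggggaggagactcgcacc
Gja5 encodes the connexin Cx40, and its window lies on the plus strand at chr3:97032152-97032451.
Gja5: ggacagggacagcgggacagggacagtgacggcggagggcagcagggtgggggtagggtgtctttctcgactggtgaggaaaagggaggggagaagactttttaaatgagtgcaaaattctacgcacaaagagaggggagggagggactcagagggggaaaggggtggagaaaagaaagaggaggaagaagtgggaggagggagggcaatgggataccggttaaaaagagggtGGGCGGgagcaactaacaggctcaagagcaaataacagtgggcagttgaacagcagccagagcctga
Gja1 encodes the connexin Cx43, and its window lies on the plus strand at chr10:56377050-56377349.
Gja1: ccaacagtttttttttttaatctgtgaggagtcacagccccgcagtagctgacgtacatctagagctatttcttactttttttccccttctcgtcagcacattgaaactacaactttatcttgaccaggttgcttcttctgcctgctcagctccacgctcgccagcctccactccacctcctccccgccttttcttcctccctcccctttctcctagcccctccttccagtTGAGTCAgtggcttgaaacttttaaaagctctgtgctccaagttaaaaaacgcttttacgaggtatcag
The Dsp window held 4 GC boxes and 2 T-box cores, the Gja5 window 1 GC box and the Gja1 window 1 AP-1 match. Of 32851 windows of the same length, 35.7% held a GC box, 19% a T-box core, 14.7% MCAT, 13.6% a TATA box and 5.2% AP-1. These matches describe the letters of the windows and not binding.

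The arrays were checked first against their labels. Dmd was at -1.50 and -1.74 in MDX_JJ101, at -0.84 and -0.27 in MDX_tap and at 1.06 on both arrays of B10_tap, where a level is the log2 signal of the probe minus that of the array's 75th percentile. It was lower by 2.68 in MDX_JJ101 against B10_tap (limma, adjusted p = 0.00646) and by 1.07 in MDX_JJ101 against MDX_tap, 2 groups of the same strain (limma, adjusted p = 0.0205). The difference of MDX_tap against B10_tap was -1.61 and was not called (limma, adjusted p = 0.0717). The labelled tissue is gastrocnemius, a limb muscle, and the markers of limb muscle and heart did not follow that label. All 8 markers of working heart muscle (Myh6, Tnni3, Tnnt2, Mybpc3, Actc1, Nkx2-5, Gata4 and Tbx5) and all 3 of ventricular muscle (Myl2, Myl3 and Irx4) were well above background on all 6 arrays. Of 5 regulators of limb muscle, 4 were well above background on no array, Myf5, Myod1 and Myog among them, and Pax7 was so in MDX_tap and B10_tap but not in MDX_JJ101. Of 9 markers of fast skeletal fibres, 3 were well above background on all arrays, Mylpf on none, and Myh1, Myh2, Myh4 and Actn3 on the arrays of MDX_tap and B10_tap but on neither of MDX_JJ101. The tissue is therefore called muscle labelled as gastrocnemius below. Between 42.5% and 43.8% of spots were well above background in MDX_JJ101, 48.1% and 49.6% in MDX_tap, and 51.4% and 51.6% in B10_tap. The 3 groups shared 1 slide, on which both MDX_JJ101 arrays lay in row 2 and the other 4 in row 1, so the slide row and the JJ101 water cannot be told apart. The B10_tap arrays lay in columns 1 and 2 and the MDX arrays of both waters in columns 3 and 4. The slide column and the strain therefore cannot be told apart either.

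All 10 genes gave a signal in each group, and most of them lay within a narrow range over the 6 arrays. Gjc1 encodes Cx45, a low-conductance connexin, and had 1.09 and 0.77 in MDX_JJ101, 1.01 and 1.07 in MDX_tap, and 0.86 and 0.91 in B10_tap, with the MDX_JJ101 arrays spanning those of both other groups. Dsc2, the gene of the desmosomal cadherin desmocollin-2, had 1.25 and 0.71 in MDX_JJ101, 0.84 and 1.02 in MDX_tap, and 0.99 and 0.86 in B10_tap. All 3 groups overlapped for it. Cdh2 encodes N-cadherin, the cadherin of the adherens junction, and had 6.09 and 6.001 in MDX_JJ101, 5.82 and 6.25 in MDX_tap, and 5.85 and 5.93 in B10_tap. Its MDX_tap arrays lay on both sides of all the others. The plot of levels by array shows Dsp and Gja5 as the genes whose arrays fell furthest apart by group relative to their replicates.

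**Figure D1:**
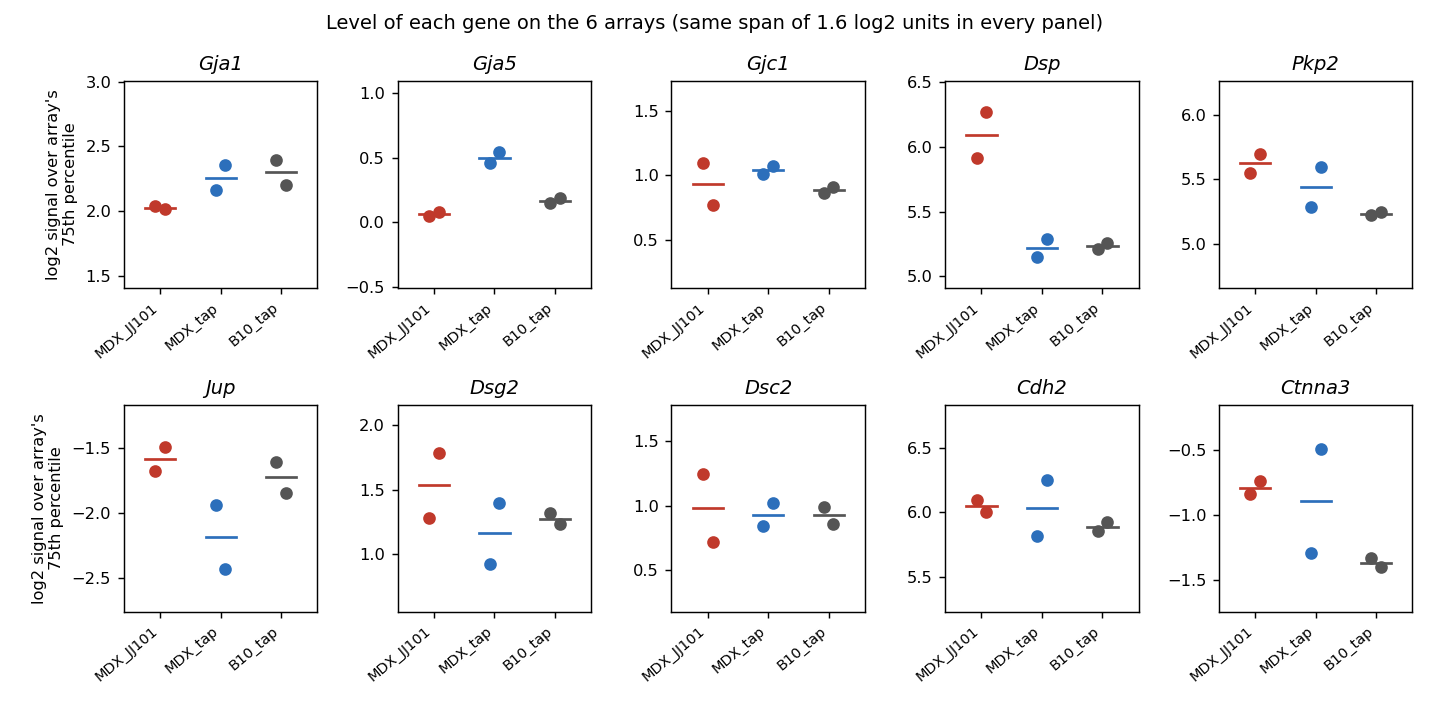
Level of each of the 10 genes on the 6 arrays (log2 signal of the probe minus that of the array's 75th percentile, each panel spanning 1.6 log2 units), in MDX_JJ101 (red), MDX_tap (blue) and B10_tap (grey). Points are arrays and lines are the means of 2 arrays; both Dsp points of MDX_JJ101 lie above those of the other groups, and both Gja5 points of MDX_tap do.

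In MDX_JJ101 against MDX_tap, the comparison of the waters within 1 strain, Dsp was higher and Gja5 was lower, and the other 8 genes did not pass the test. Desmoplakin, the product of Dsp, is the cytoplasmic plaque protein that links desmosomes to desmin. Dsp had 5.91 and 6.27 in MDX_JJ101, against 5.15 and 5.29 in MDX_tap. Both MDX_JJ101 arrays stood above both MDX_tap arrays. The difference was 0.87 on the log2 scale (SE 0.151, 95% interval 0.49 to 1.26, n = 2 arrays each), which is 1.83-fold (limma, adjusted p = 0.0158). Gja5 had 0.047 and 0.084 in MDX_JJ101, against 0.46 and 0.54 in MDX_tap. Again the arrays of the groups did not overlap, with MDX_JJ101 the lower. Cx40 is the connexin of atrial muscle, of the fast conduction fibres and of arterial endothelium. Its difference was -0.44 (SE 0.095, 95% interval -0.68 to -0.20, n = 2 arrays each; limma, adjusted p = 0.0246).

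These 2 calls among 10 genes stand beside 36.1% of all genes tested called in the same comparison, 19.9% higher and 16.1% lower. The share of members called was thus below that of all genes, and the median difference of the 10 genes was 0.076, against 0.00079 over all genes. The arrays of the 2 groups did not overlap for 4 of the 10 genes, 2 of them higher and 2 lower, against 72.7% of all genes (37.3% higher and 35.4% lower). At an unadjusted p under 0.05 there were 3 of the 10 genes, against 49.7% of all genes. Jup, which encodes plakoglobin, the armadillo protein shared by desmosomes and adherens junctions, had -1.67 and -1.49 in MDX_JJ101 and -1.93 and -2.43 in MDX_tap. The arrays did not overlap, but its difference of 0.60 (SE 0.202) did not pass (limma, adjusted p = 0.0693). Gja1, the major connexin of ventricular muscle, had 2.04 and 2.01 in MDX_JJ101 and 2.16 and 2.36 in MDX_tap, a difference of -0.23 with an interval of -0.55 to 0.084. For Dsg2, the desmosomal cadherin desmoglein-2, the arrays overlapped, at 1.28 and 1.79 in MDX_JJ101 and 0.93 and 1.39 in MDX_tap. The intervals of the remaining genes all held 0, with differences of 0.18 for Pkp2, 0.10 for Ctnna3, 0.049 for Dsc2, 0.015 for Cdh2 and -0.11 for Gjc1. The 95% intervals reached 0.53 for Pkp2 and 0.79 for Ctnna3 at their upper ends.

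**Figure D2:**
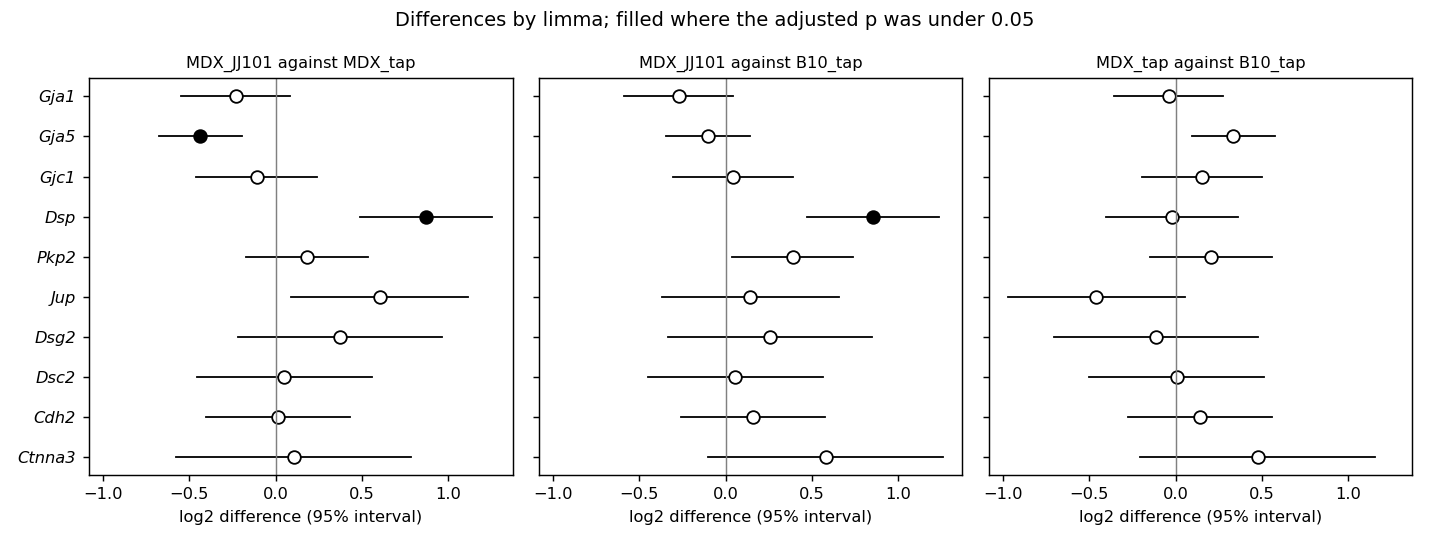
Log2 difference of each gene with its 95% interval (limma, 2 arrays a group) in the 3 comparisons; filled points had an adjusted p under 0.05. Dsp is filled in both comparisons of MDX_JJ101, Gja5 in MDX_JJ101 against MDX_tap, and no gene in MDX_tap against B10_tap.

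The Dsp and Gja5 differences kept their sign whichever array was left out. Without MDX_tap replicate 1 the Dsp difference was 0.80 and without MDX_tap replicate 2 it was 0.94. Without the MDX_JJ101 arrays, replicate 1 and then replicate 2, it was 1.05 and 0.69. The Gja5 differences ran from -0.48 to -0.40. The Dsp call ended when either MDX_tap array was left out, and the Gja5 call when any of the 6 arrays was. Fewer genes were called over the whole table in these fits too, except without MDX_JJ101 replicate 1. Within slide column 3 the Dsp difference was 0.76 and within column 4 it was 0.99, and those of Gja5 were -0.42 and -0.46. With the slide column as a block the adjusted p-values were 0.0579 for Dsp and 0.0957 for Gja5 (limma), in a fit that called 0 of 20871 genes and had 8859 genes at an unadjusted p under 0.05.

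The signal of the Dsp probe was even over its copies on the array. The probe was printed in 10 spots, which on MDX_JJ101 ranged over 5.89 to 5.97 and 6.24 to 6.34, and on MDX_tap over 5.11 to 5.20 and 5.23 to 5.35. On B10_tap the spots ranged over 5.10 to 5.32 and 5.19 to 5.34. Spots of 1 array are not replicates of a condition, and they show that the MDX_JJ101 arrays differed from each other by more than their spots did. A second Dsp probe, printed in 1 spot and for the same transcript NM_023842, had 0.69 and 0.87 in MDX_JJ101, 0.26 and 0.67 in MDX_tap, and 0.38 and 0.53 in B10_tap. The MDX_JJ101 arrays were again above the others, although the upper MDX_tap array came close to the lower MDX_JJ101 array. With the second probe in its place, the Dsp difference was 0.31 against MDX_tap (SE 0.177; limma, adjusted p = 0.22), so the 2 probes agreed in sign but not in size or in call. Gja1 was also printed in 10 spots, with an SD over spots of 0.040 to 0.092 on the 6 arrays. Its MDX_tap and B10_tap arrays were spread over about the same levels.

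**Figure D3:**
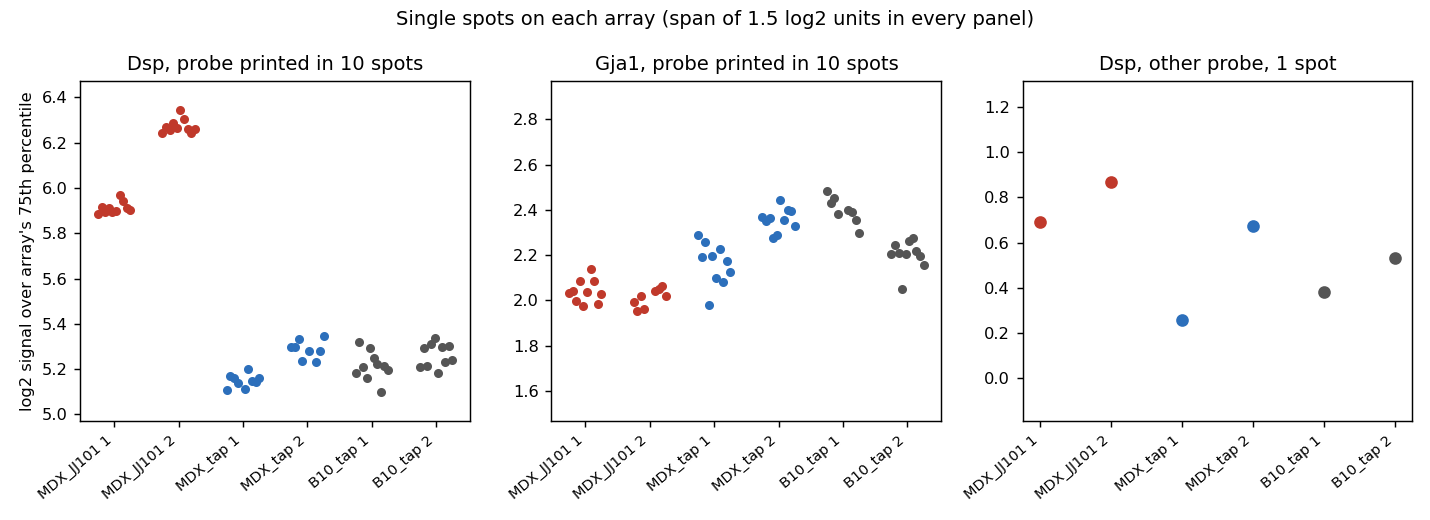
Single spots on each array for the Dsp probe printed in 10 spots, the Gja1 probe printed in 10 spots and the other Dsp probe (log2 signal minus that of the array's 75th percentile, each panel spanning 1.5 log2 units), in MDX_JJ101 (red), MDX_tap (blue) and B10_tap (grey). The Dsp spots of both MDX_JJ101 arrays lie above all Dsp spots of the other 4 arrays, and the gap is narrower for the other Dsp probe.

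The differences also shifted with the scaling of the arrays. Median centring in place of the 75th percentile moved the median of all genes in MDX_JJ101 against MDX_tap to 0.23, and scaling on the spike-in probes moved it to -0.47. Over all genes, 4160 were higher and 3369 lower with the 75th percentile, 5692 and 1898 with median centring, and 128 and 5887 with the spike-in probes. The Dsp difference was positive under every scaling, at 1.1 with median centring, 0.71 after normexp and quantile normalization, 0.73 in the authors' deposited table and 0.40 with the spike-in probes (limma, adjusted p = 0.24). Relative to the median of all genes, the Dsp difference with the spike-in probes was as large as under the 75th percentile, since that scaling moves all genes of an array by 1 amount. Gja5 was negative under every scaling, from -0.21 with median centring, where it was not called (limma, adjusted p = 0.283), to -0.91 with the spike-in probes. After normexp and quantile normalization, and in the authors' deposited table, 4 of the 10 genes were called, which added Jup as higher and Gja1 as lower. Of all 20871 genes, 7447 and 7431 were called there, in the same order. Pkp2 and Cdh2 changed sign between the 75th percentile and those scalings, and neither was called.

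**Figure D4:**
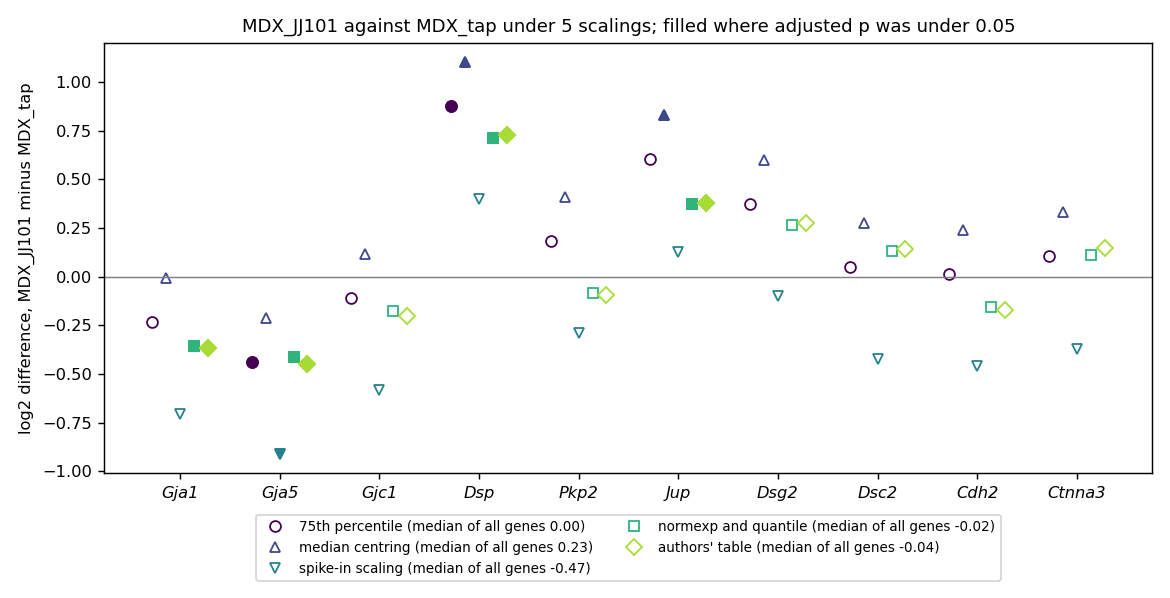
Log2 difference of each gene in MDX_JJ101 against MDX_tap under 5 scalings of the arrays, with the median of all genes under each scaling in the legend; filled symbols had an adjusted p under 0.05 (limma). Dsp lies above 0 and Gja5 below 0 under all 5, while Gjc1, Pkp2, Dsg2, Dsc2, Cdh2 and Ctnna3 lie on both sides of 0.

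Markers of other cell types moved between the same groups. Dsp is also a protein of epithelia, and Gja5 is also found in atrial muscle, conduction fibres and endothelium. A list's summed level is the sum of its genes' signals in multiples of the array's 75th percentile. The 6 endothelial markers, all well above background on all arrays, summed to 32.6 to 35.5 in MDX_JJ101, 53.1 to 60.2 in MDX_tap and 52.4 to 55.9 in B10_tap. Of the 6, 4 were called lower in MDX_JJ101 against MDX_tap, where 16.1% of all genes were lower. The 4 atrial markers summed to 649 to 1017 in MDX_JJ101, 371 to 505 in MDX_tap and 139 to 181 in B10_tap, with none called against MDX_tap. Nppa, the gene of atrial natriuretic peptide, made up 98.4% to 99.7% of that sum on each array. Myl7 was well above background on 1 array, of B10_tap, and Sln on both arrays of B10_tap, on 1 of MDX_tap and on none of MDX_JJ101, so the sum does not describe the list as a whole. Of 4 markers of the conduction system, Hcn4, Shox2 and Isl1 were well above background on no array. The remaining marker, Tbx3, was called lower in MDX_JJ101 against MDX_tap, with a difference of -0.66 (limma, adjusted p = 0.0215). The 8 markers of working heart muscle summed to 5458 to 5684 in MDX_JJ101, 4390 to 4866 in MDX_tap and 5071 to 5173 in B10_tap. Of the 8, 5 were called higher in MDX_JJ101 against MDX_tap, where 19.9% of all genes were higher. The 6 fibroblast markers summed to 263 to 382 in MDX_JJ101, 671 to 722 in MDX_tap and 449 to 476 in B10_tap. Dcn had the highest level of the 6 on each array, so the sum does not describe the list as a whole. In MDX_JJ101 against MDX_tap, 3 were called lower and 0 higher. Against B10_tap, 2 were lower and 1 was higher, where 17.4% of all genes were lower and 16.2% higher. Col1a1 and Col1a2 were above B10_tap there, by 1.12 and 0.46, and the other 4 were below. The 6 epithelial markers summed to 1.14 to 1.36 in MDX_JJ101, 0.860 to 0.882 in MDX_tap and 0.975 to 1.05 in B10_tap. Krt10, the 1 gene of the list well above background on all arrays, made up 78.8% to 88.3% of the sum, with the keratin Krt1 and the E-cadherin gene Cdh1 well above background on no array. Of 4 macrophage markers, 3 were on the array, and all 3 were called lower in MDX_JJ101 against MDX_tap. The markers of fast skeletal fibres well above background on all arrays were Acta1, Ckm and Tnni2. They differed by 0.75, 1.37 and -2.51 in MDX_JJ101 against MDX_tap. Myh1, Myh2, Myh4 and Actn3 were well above background on neither MDX_JJ101 array, so no difference is given for them. The part of these cell types in the Dsp and Gja5 differences was not tested. In whole muscle, fewer cells of a type and less RNA per cell cannot be told apart.

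In MDX_JJ101 against B10_tap, where strain, water, slide row and slide column all differ, Dsp alone was called. Dsp had 5.91 and 6.27 in MDX_JJ101, against 5.22 and 5.26 in B10_tap, and the groups did not overlap. The difference was 0.85 (SE 0.151, 95% interval 0.47 to 1.24), or 1.81-fold (limma, adjusted p = 0.0175). Over all genes tested, 33.6% were called in this comparison, 16.2% higher and 17.4% lower, so 1 call among 10 genes is a smaller share than the background. The Dsp difference was 0.32 with the second probe (limma, adjusted p = 0.213) and 0.29 with the spike-in probes (limma, adjusted p = 0.365). Without B10_tap replicate 1 the difference was 0.83 and without replicate 2 it was 0.88. The Dsp call ended in both of these fits, in which fewer genes were called over the whole table too. This comparison shares the MDX_JJ101 arrays with the previous one, so the Dsp values of the 2 comparisons are not independent.

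The other 9 genes did not pass against B10_tap. Pkp2 encodes plakophilin-2, the desmosomal plaque protein of heart, and had 5.55 and 5.70 in MDX_JJ101, against 5.22 and 5.25 in B10_tap. The arrays did not overlap, and its difference was 0.39 (SE 0.139; limma, adjusted p = 0.0831). Ctnna3 encodes alphaT-catenin, which links cadherin complexes to actin and binds plakophilin-2, and had -0.84 and -0.74 in MDX_JJ101, against -1.33 and -1.40 in B10_tap. Its difference was 0.58 (SE 0.269; limma, adjusted p = 0.147). Gja1 had 2.04 and 2.01 in MDX_JJ101, against 2.40 and 2.20 in B10_tap, a difference of -0.27 (SE 0.125; limma, adjusted p = 0.143). Gja5 differed by -0.10 and Cdh2 by 0.16, each with arrays that did not overlap. Dsg2, Jup, Dsc2 and Gjc1 overlapped between the groups, with differences of 0.26, 0.14, 0.056 and 0.044. The arrays of 6 of the 10 genes did not overlap, 4 higher and 2 lower, against 75.2% of all genes (37.9% higher and 37.3% lower). At an unadjusted p under 0.05 there were 2 of the 10, against 47.9% of all genes, and the median difference of the 10 genes was 0.15, against -0.0065 over all genes. With median centring, which moved the median of all genes to 0.39, 5 of the 10 genes were called and all 5 were higher. With the spike-in probes the median of all genes was -0.57, and the 1 gene called was Gja1, as lower. Over all genes, 3376 were higher and 3633 lower with the 75th percentile, 8457 and 1645 with median centring, and 109 and 7466 with the spike-in probes.

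In MDX_tap against B10_tap, the comparison of strains on tap water, in which the slide columns also differed, none of the 10 genes was called. Only 5 of 20871 genes, 0.024%, were called in this comparison by limma, all lower. At an unadjusted p under 0.05 there was 1 of the 10 genes, Gja5, against 21% of all genes. Gja5 had 0.46 and 0.54 in MDX_tap, against 0.15 and 0.19 in B10_tap. Both MDX_tap arrays were above both B10_tap arrays, and the difference was 0.33 (SE 0.095, 95% interval 0.093 to 0.57; limma, adjusted p = 0.163). Dsp differed by -0.02 (95% interval -0.40 to 0.36). Ctnna3 had -1.30 and -0.49 in MDX_tap, against -1.33 and -1.40 in B10_tap, a difference of 0.48 that came mostly from MDX_tap replicate 2 and whose interval ran from -0.21 to 1.16. Jup had -1.93 and -2.43 in MDX_tap, against -1.60 and -1.85 in B10_tap, a difference of -0.46 (SE 0.202; limma, adjusted p = 0.271). Pkp2 had 5.29 and 5.59 in MDX_tap, against 5.22 and 5.25 in B10_tap, and differed by 0.21. Arrays of the groups did not overlap for 5 of the 10 genes, 4 higher and 1 lower, against 61.3% of all genes (24.4% higher and 37% lower). The median difference of the 10 genes was 0.075, against -0.06 over all genes. None of the 10 was called under any of the 17 alternatives, while the number of genes called over the whole table ranged from 0 to 407. The calls over all genes were 0 higher and 5 lower with the 75th percentile, 242 and 43 with median centring, 51 and 75 with the spike-in probes, 302 and 105 after normexp and quantile normalization, and 266 and 82 in the authors' deposited table.

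Replicates of MDX_tap differed in most of these genes in 1 direction. MDX_tap replicate 2 was above replicate 1 in 9 of the 10 genes, with a median gap of 0.19, whereas over all genes 55.1% were higher in replicate 2 and the median gap was 0.027. Jup was the exception. In MDX_JJ101 replicate 2 was the higher for 6 of the 10 genes and in B10_tap for 5. The mean level of the 10 genes, each centred on its own mean over the arrays, was 0.099 and 0.14 in MDX_JJ101, -0.13 and 0.084 in MDX_tap, and -0.068 and -0.12 in B10_tap. MDX_tap thus held both the lowest array and one close to those of MDX_JJ101.

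The other connexin genes were mostly not measurable in this tissue. Of 20 other connexins and pannexins, 12 were well above background on no array and 5 were well above background on all 6. Gja10 was well above background on the B10_tap arrays alone and entered the test through that group, so no difference is given for it. Of the other 5, in MDX_JJ101 against MDX_tap none was called (limma; 2 had an unadjusted p under 0.05). Over all genes 36.1% were called there and 49.7% had an unadjusted p under 0.05. In MDX_JJ101 against B10_tap none was higher and 2 were lower, where 16.2% of all genes were higher and 17.4% lower. With median centring, the list with Gja10 had 3 higher and 1 lower in that comparison, and its median difference was 0.20, against -0.20 with the 75th percentile. Over all 20871 genes that scaling gave 8457 higher and 1645 lower. Gjb1, the connexin of liver and of myelinating Schwann cells, had -0.63 and -0.78 in MDX_JJ101, against -0.37 and -0.14 in B10_tap (difference -0.45, SE 0.125; limma, adjusted p = 0.0458). The arrays of these groups did not overlap. Its MDX_tap arrays had -0.77 and -0.68, with a difference of 0.022 in MDX_JJ101 against MDX_tap and of -0.47 in MDX_tap against B10_tap. The call against B10_tap held under 6 of 17 alternatives, with differences from -1.01 to -0.050.

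Of 13 other desmosome and desmin-anchor genes, 8 were well above background on no array (Dsg1a, Dsg1b, Dsg1c, Dsg3, Dsg4, Dsc1, Dsc3 and Pkp1, which are known from skin). Of the 5 tested, 2 were higher and 1 was lower in MDX_JJ101 against MDX_tap, where 19.9% of all genes were higher and 16.1% lower, and likewise against B10_tap. With the spike-in probes, 0 were higher and 1 was lower against MDX_tap, and 1 was higher and 2 were lower against B10_tap. Des encodes desmin, the intermediate filament that desmoplakin anchors, and had 6.23 and 6.42 in MDX_JJ101, 5.15 and 5.08 in MDX_tap, and 5.04 and 4.92 in B10_tap. Both MDX_JJ101 arrays lay above all 4 others, by 1.21 against MDX_tap (SE 0.116, 2.32-fold; limma, adjusted p = 0.0125) and by 1.34 against B10_tap (limma, adjusted p = 0.00746). With the spike-in probes the Des difference against MDX_tap was 0.74 and was not called (limma, adjusted p = 0.0538), and against B10_tap it was 0.78 (limma, adjusted p = 0.0372). Perp, a membrane protein of desmosomes, was higher by 0.45 and 0.49 in the same comparisons. Its sign turned with the spike-in probes, to -0.028 and -0.073. Ppl, the plakin periplakin, was lower, with -0.82 and -0.85 in MDX_JJ101, -0.20 and 0.13 in MDX_tap, and -0.23 and -0.37 in B10_tap (differences -0.80 and -0.53; limma, adjusted p = 0.0166 and 0.0414).

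Among 20 other adherens junction and disc adaptor genes, 19 were tested, and 5 were higher and 0 lower in MDX_JJ101 against MDX_tap (limma; 11 of the 19 had an unadjusted p under 0.05). Over all genes 19.9% were higher and 49.7% had an unadjusted p under 0.05. Their median difference was 0.29, and it was -0.18 with the spike-in probes, where 1 was higher and 3 were lower. Nrap, an actin-binding protein at the ends of myofibrils, had 4.14 and 4.66 in MDX_JJ101, 2.88 and 2.43 in MDX_tap, and 3.05 and 3.04 in B10_tap. Its difference was 1.74 against MDX_tap (SE 0.231, 3.35-fold; limma, adjusted p = 0.013) and 1.36 against B10_tap (limma, adjusted p = 0.0164). Xirp1, the disc adaptor Xin, had 3.19 and 3.30 in MDX_JJ101, 2.20 and 2.43 in MDX_tap, and 2.58 and 2.38 in B10_tap. For both genes the MDX_JJ101 arrays lay above all others. Arvcf, a catenin of the p120 family, was higher by 0.69 against MDX_tap and 0.46 against B10_tap. Lmo7, an actin-binding adaptor, was higher by 0.69 and 0.70, and Tln2, a talin, by 0.45 and 0.52, while a second Tln2 probe gave -0.088 and -0.15. With the spike-in probes Arvcf against B10_tap and Tln2 in both comparisons turned negative.

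All 12 disc ion channels and their partners were tested, and 6 were higher and 0 lower in MDX_JJ101 against MDX_tap (limma; 7 of the 12 had an unadjusted p under 0.05), beside the same 19.9% and 49.7% of all genes. Their median difference was 0.47, against 0.00079 over all genes, and it was -0.0044 with the spike-in probes, where none was called. Ank3, the gene of ankyrin-G, which anchors ion channels, had 0.33 on both arrays of MDX_JJ101, -0.63 and -0.26 in MDX_tap, and -0.84 and -0.70 in B10_tap. Both MDX_JJ101 arrays lay above all 4 others. It was higher by 0.77 against MDX_tap (SE 0.153, 1.71-fold; limma, adjusted p = 0.0203) and by 1.1 against B10_tap (limma, adjusted p = 0.0122). A second kept Ank3 probe gave 0.51 and 0.75, and another gave 0.016 and -0.095. Bves and Popdc2, 2 membrane proteins that bind cyclic AMP, were higher by 0.85 and 0.71 against MDX_tap and by 0.85 and 0.56 against B10_tap. In MDX_tap against B10_tap none of the genes of the 4 lists was called (limma). Of the 40 well above background on all arrays, 4 had an unadjusted p under 0.05 (limma). Over all genes 0.024% were called there and 21% had an unadjusted p under 0.05.

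**Figure D5:**
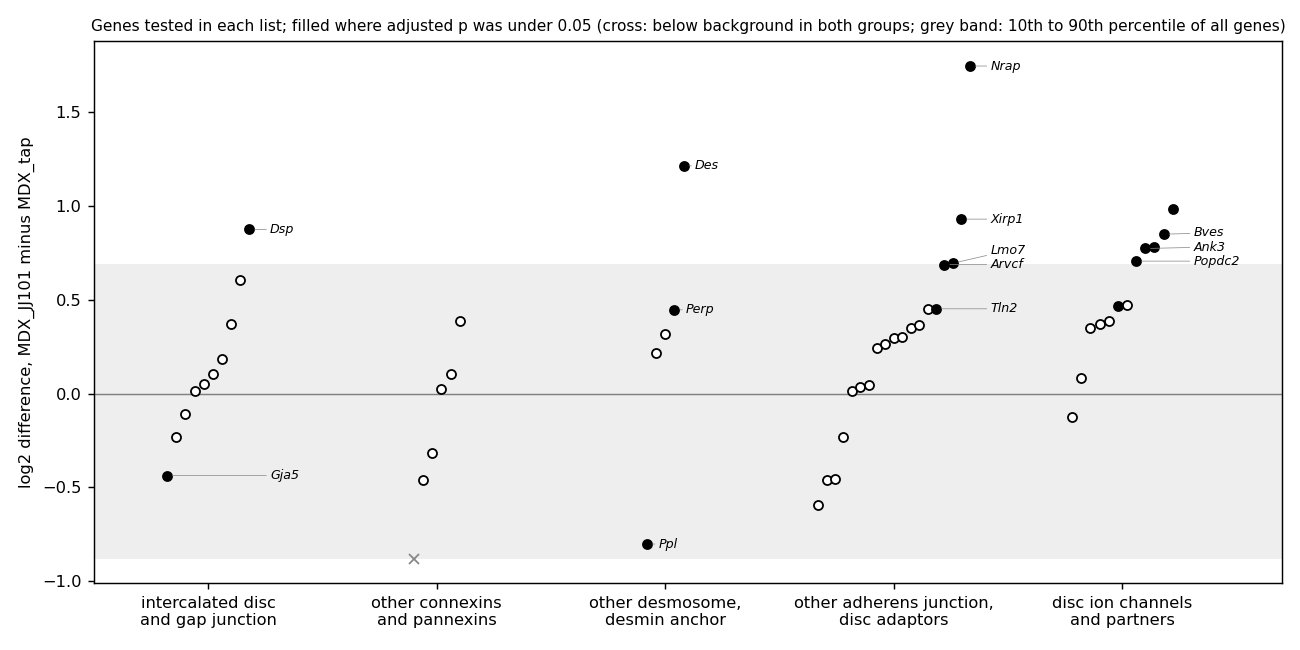
Log2 difference of each tested gene in MDX_JJ101 against MDX_tap, for the 10 intercalated disc and gap junction genes and 4 related lists; filled points had an adjusted p under 0.05 (limma; those named in the text are labelled), the cross marks a gene below background in both groups, and the grey band spans the 10th to 90th percentile of all genes. Called genes of the adherens junction and channel lists lie above 0, and with the spike-in probes the medians of the 3 lists with higher genes were -0.16, -0.18 and -0.0044.

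The medians and calls of these lists shifted with the array left out. In MDX_JJ101 against MDX_tap, the median difference was 0.32 in the desmosome list, 0.29 in the adherens junction list and 0.47 in the channel list. Without MDX_tap replicate 1 the medians were 0.27, 0.17 and 0.46, in the same order. Without MDX_tap replicate 2 they were 0.36, 0.40 and 0.73. Leaving out either MDX_tap array gave fewer calls, in these lists and over all genes. Leaving out either MDX_JJ101 array kept these medians above 0. With the slide column as a block, no gene of these lists and 0 of all 20871 genes were called. In MDX_JJ101 against B10_tap, the medians were 0.064, 0.33 and 0.48 without B10_tap replicate 1. They were 0.043, 0.39 and 0.46 without B10_tap replicate 2. Leaving out either B10_tap array gave fewer calls, in the 4 lists and over all genes.

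The gene pairs within the set varied together only in part. Over the 6 arrays, Pkp2 and Ctnna3 had a Pearson r of 0.925, Cdh2 and Ctnna3 of 0.897, Dsp and Pkp2 of 0.789, and Dsp and Dsg2 of 0.757. Gja5 and Jup had an r of -0.888, and Dsp and Gja1 of -0.78. The arrays share a slide, a scaling and the 3 groups, and the values describe these 6 arrays. By the same measure, the genes most like the mean centred level of the 10 genes were Prkacb (r = 0.996), Hsd17b4 (r = 0.996), Pxylp1 (r = 0.993), Daam1 (r = 0.993) and Selenoi (r = 0.992), among 12304 other named genes well above background on all 6 arrays. Of those, 312 had an r above 0.9.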

How the data were processed

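Spot intensity was extracted by the authors from the scans with Agilent Feature Extraction, version 11.5.1.1, per the submitters' processing notes. The processed signal in the deposited files is background-subtracted, per the file headers. The authors' deposited series table is on the log2 scale. Each of its columns had a Spearman correlation of 1 with the array's median spot signal, its sorted columns differed by at most 0.0574, and its column medians were 5.69, 5.69, 5.68, 5.69, 5.69 and 5.68. It is thus on a common scale and not centred on genes, and it served as an alternative only. The other deposited columns used here hold flags of 0 or 1, set by the authors' software, for spots that are outliers, saturated or well above background, and slide positions.

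From these the log2 of the processed signal minus each array's 75th percentile over 59305 non-control spots was computed, leaving out 816 spots flagged as outliers over all arrays. No non-control spot was saturated. Spots of a probe were averaged. The filter asked that both arrays of 1 or more groups be well above background (27261 probes passed), and the probe with the highest mean stood for its gene. Symbols came from RefSeq accessions of a table of assembly GRCm38.p6, which named 27656 probes (20972 symbols), and 13954 of the 20871 entries tested had a symbol. One limma model (limma 3.58.1, R 4.3.3) held all 3 groups (3 residual and 2.21 prior degrees of freedom), two-sided, adjusted by Benjamini-Hochberg over all entries and a threshold of 0.05. The fit was tested on simulated data.

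The members, lists and rules were chosen with earlier results of these data known. All 10 members are named, and of each related list the up to 5 genes with the smallest p in a comparison. Some genes that this rule names are not reported here. The alternatives were other scalings, background corrections, filters, probe rules, fits and each array left out. The planned normexp correction uses the mean spot signal, and the median spot signal stood in for it. The labels' replicate numbers were not taken as pairs, because their deviations correlated at 0.16 for MDX_JJ101 with MDX_tap, -0.064 for MDX_JJ101 with B10_tap and -0.031 for MDX_tap with B10_tap. Precision is limited by the 2 arrays a group.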

Additional observations from a re-analysis of the deposited data

How the results depend on the processing

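Of 10 members, the number called in MDX_JJ101 against MDX_tap was 2. It was 3 with the stricter filter, which added Jup, and 2 with median centring, where Jup was called and Gja5 was not. It was 4 after normexp and quantile normalization and in the authors' deposited table, 1 with the spike-in probes, with the probe of the lowest mean (an alternative chosen after seeing the data) and with the 2 groups fitted alone, 0 with the slide column as a block, and 0 to 1 with 1 array left out. In MDX_JJ101 against B10_tap it was 1. It was 5 with median centring, 2 after normexp and quantile normalization, in the authors' deposited table, with the 2 groups fitted alone and with a trended robust variance, 0 with the probe of the lowest mean, and 0 to 2 with 1 array left out. In MDX_tap against B10_tap it was 0 throughout. Where 1 array of a group was left out, the lone array was assumed to vary like the other groups. With the replicate number as a block these numbers stayed at 2, 1 and 0, in the order given, beside 6518, 5864 and 4 of all 20871 genes. Of all 20871 genes, MDX_JJ101 against MDX_tap had 7590 called with median centring and 6015 with the spike-in probes. It had 7447 after normexp and quantile normalization and 7431 in the authors' deposited table. MDX_JJ101 against B10_tap had 10102, 7575, 6289 and 6550, in the same order. The stricter filter gave 7722 of 17147 genes called in MDX_JJ101 against MDX_tap. In that comparison 3248 of all 20871 genes were called with the 2 groups alone and 6742 with the probe of the lowest mean. In MDX_JJ101 against B10_tap these were 5766 and 6148, and 8387 were called with a trended robust variance. The cause of these changes was not tested, except that leaving out arrays leaves fewer degrees of freedom.

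Signs turned as follows. In MDX_JJ101 against MDX_tap the spike-in probes gave Pkp2 -0.29, Dsg2 -0.10, Dsc2 -0.42, Cdh2 -0.46, Ctnna3 -0.37, Perp -0.028 and Tln2 -0.022. Median centring gave Gjc1 0.12. Normexp and quantile normalization gave Pkp2 -0.084 and Cdh2 -0.16, and the authors' deposited table -0.093 and -0.17. The probe of the lowest mean gave Tln2 -0.088. With 1 array left out, Dsc2 ranged from -0.22 to 0.32, Cdh2 from -0.20 to 0.23, Ctnna3 from -0.30 to 0.51 and Gjc1 from -0.27 to 0.052. In MDX_JJ101 against B10_tap the spike-in probes gave Gjc1 -0.52, Pkp2 -0.17, Jup -0.42, Dsg2 -0.30, Dsc2 -0.50, Cdh2 -0.40, Perp -0.073, Tln2 -0.043, Arvcf -0.095 and Popdc2 -0.0016. Median centring gave Gja1 0.13 and Gja5 0.30. Normexp and quantile normalization gave Gjc1 -0.12 and Cdh2 -0.025, and the authors' deposited table -0.13 and -0.035. The probe of the lowest mean gave Tln2 -0.15 and Ank3 -0.095. With 1 array left out, Dsc2 ranged from -0.21 to 0.32 and Gjc1 from -0.12 to 0.21. In MDX_tap against B10_tap median centring gave Gja1 0.13, Dsp 0.15 and Dsg2 0.059, and Dsc2 was -0.079 with the spike-in probes, -0.098 after normexp and quantile normalization and -0.10 in the authors' deposited table. The probe of the lowest mean gave Dsp 0.010. With 1 array left out, Gja1 ranged from -0.14 to 0.057, Dsp from -0.090 to 0.050, Dsg2 from -0.35 to 0.12, Dsc2 from -0.084 to 0.098 and Cdh2 from -0.072 to 0.36. Of the other differences under an alternative, 877 kept direction and call, 157 kept direction but lost the call and 21 gained one.

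Over all genes the count called in MDX_JJ101 against MDX_tap was 7529, and it fell to 48 when MDX_tap replicate 2 was left out and to 1404 for replicate 1. It was 3737 without MDX_JJ101 replicate 2, 3248 with the 2 groups alone, 0 with the slide column as a block and 13640 with no filter. In MDX_JJ101 against B10_tap it was 7009, and it was 112 and 76 without either B10_tap array, 3628 without MDX_JJ101 replicate 2 and 14092 with no filter. In MDX_tap against B10_tap it was 5, and it was 151 with the stricter filter, 391 with a trended robust variance, 125 with the 2 groups alone and 0 with no filter. All 10 members were well above background on all 6 arrays, and the 2 arrays a group limit the precision of their tests.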
